A study of Homo sapiens with 16 samples.

Results

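TRAF proteins are adaptors that carry signals from TNF receptor family members, and the genes described here are 10 regulators of the NF-kB pathway in which they act: TRAF1, TRAF2, TRAF3, TRAF5, TRAF6, BIRC3, TNFAIP3, NFKBIA, NFKBIE and NFKB2. They were chosen by name with earlier results of these data known, namely the presence and covered length of peaks around them in these 12 peak lists, and make up 10 of 19974 protein-coding genes. For each gene, the base pairs covered by peaks in the gene and 50 kb on each side were measured in every library. Because that choice used the same lists and treatments, all differences between treatments at these 10 genes are given as a description without a test.

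The cells were Toledo, an established human B-cell lymphoma line, mapped by chromatin immunoprecipitation and sequencing (ChIP-seq). The CARM1i group was grown for 6 days with 5 uM TP-064, which blocks the arginine methyltransferase CARM1, and the DMSO group for 6 days with the solvent. Antibodies to H3K27ac, which marks active promoters and enhancers, to H3K4me1, found mainly at enhancers, and to H3K4me3, found at promoters, gave 2 libraries per mark and treatment. All libraries come from 1 cell line, and the labels do not tell whether the libraries of each pair were made from separate cultures. All CARM1i libraries were on lane 4 and all DMSO libraries on lane 3, so treatment and lane cannot be told apart.

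NF-kB dimers are held in the cytoplasm by inhibitor proteins until a receptor signal activates the IKK kinases, which mark the inhibitors for destruction. In the alternative branch, which B cells use downstream of CD40 and the BAFF receptor, a complex of TRAF2, TRAF3 and BIRC2 or BIRC3 keeps the kinase MAP3K14 (NIK) low. When that complex is broken up, MAP3K14 accumulates and the NFKB2 precursor is processed. Several of the regulators, among them NFKBIA, TNFAIP3 and BIRC3, are themselves known targets of NF-kB and damp or shape the signal.

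The promoters of 4 members are shown because each holds a kB consensus motif within 250 bases before its annotated start and lay, at least in part, under H3K4me3 peaks in all 4 libraries of that mark. Sequences and starts are from RefSeq (GRCh38.p14), which had entries for 9 members. NFKBIE was not among them. Each line runs 5′ to 3′ on the strand of the gene and ends at the base before the start, and capitals mark a match of the 10-letter kB consensus on either strand. The windows are chr14:102777199-102777448 (+) for TRAF3, chr11:102317234-102317483 (+) for BIRC3, chr6:137867009-137867258 (+) for TNFAIP3 and chr14:35404750-35404999 (-) for NFKBIA.
TRAF3: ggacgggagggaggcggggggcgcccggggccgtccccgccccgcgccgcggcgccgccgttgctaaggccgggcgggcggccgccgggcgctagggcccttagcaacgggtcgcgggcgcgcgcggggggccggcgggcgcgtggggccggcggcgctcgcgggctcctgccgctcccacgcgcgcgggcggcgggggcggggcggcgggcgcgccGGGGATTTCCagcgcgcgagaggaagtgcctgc
BIRC3: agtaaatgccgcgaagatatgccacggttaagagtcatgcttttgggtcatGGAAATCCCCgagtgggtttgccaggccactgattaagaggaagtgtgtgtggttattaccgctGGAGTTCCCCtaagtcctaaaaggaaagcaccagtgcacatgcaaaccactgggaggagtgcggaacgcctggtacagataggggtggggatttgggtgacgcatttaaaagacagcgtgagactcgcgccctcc
TNFAIP3: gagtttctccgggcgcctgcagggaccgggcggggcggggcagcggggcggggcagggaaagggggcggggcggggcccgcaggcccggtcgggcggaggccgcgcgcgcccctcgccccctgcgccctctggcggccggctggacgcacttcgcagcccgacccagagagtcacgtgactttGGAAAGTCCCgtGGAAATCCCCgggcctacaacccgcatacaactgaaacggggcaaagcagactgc
NFKBIA: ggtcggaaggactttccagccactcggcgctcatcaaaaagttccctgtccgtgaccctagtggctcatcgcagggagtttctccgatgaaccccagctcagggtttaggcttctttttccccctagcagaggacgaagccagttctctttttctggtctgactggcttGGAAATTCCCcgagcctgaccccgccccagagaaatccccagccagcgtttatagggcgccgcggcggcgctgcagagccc

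TRAF3 held 1 match, at -33 to -24 from the start, in a window of 86.4% G and C. BIRC3 held 2 matches and TNFAIP3 held 2, and the TNFAIP3 pair lay 2 bases apart at -67 to -58 and -55 to -46. NFKBIA held 1, at -81 to -72. NFKB2 has 3 annotated starts. No match was found before the first, 3 before the second (2 of them overlapping) and 2 before the third. The NFKB2 stretches, 30 bases each, are from chr10:102394461-102394490 and chr10:102394490-102394519 before the second start and from chr10:102395519-102395548 and chr10:102395674-102395703 before the third, all on the + strand.
NFKB2, before the second start, first match: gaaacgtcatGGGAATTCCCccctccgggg
NFKB2, before the second start, last match: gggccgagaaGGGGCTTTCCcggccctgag
NFKB2, before the third start, first match: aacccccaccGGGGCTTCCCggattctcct
NFKB2, before the third start, second match: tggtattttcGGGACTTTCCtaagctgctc

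No match was found in these windows for TRAF1, TRAF2, TRAF5 or TRAF6, which says only that these letters are not there. Of 22130 such windows over all protein-coding genes with an entry, 2496 (11.3%) held at least 1 match. A match describes the sequence and shows no binding. Over the NFKBIA window, H3K27ac peaks covered all 250 bases in both CARM1i and both DMSO libraries. Over the TRAF3 window they covered 250 and 217 bases in the CARM1i libraries and 250 in each DMSO library. At TNFAIP3 they covered 102 and 105 bases with CARM1i and 250 and 166 bases with DMSO, in each case including both motifs. BIRC3 had none over its window with CARM1i and 250 and 0 bases with DMSO. The windows before the second and the third NFKB2 start likewise had H3K27ac in DMSO library 1 and in no other library.

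The peak lists carry positions and no reads, so depth and the height of a peak are unknown. For H3K27ac there were 4771 and 4595 peaks with CARM1i and 7885 and 4016 with DMSO. For H3K4me1 there were 4094 and 4242 peaks with CARM1i and 25058 and 9673 with DMSO. For H3K4me3 there were 10317 and 10048 peaks with CARM1i and 12476 and 11481 with DMSO. The total covered length with CARM1i was 79.6% of that with DMSO for H3K27ac, 21.1% for H3K4me1 and 74.1% for H3K4me3, so a value at a single gene is read beside the same count over all genes. These are ratios of means. For H3K27ac the totals were 10.413 and 9.545 Mb with CARM1i and 17.27 and 7.795 Mb with DMSO, so the groups overlapped. For H3K4me1 they were 9.113 and 8.301 Mb against 60.384 and 22.136 Mb. A shorter or missing peak in such bulk libraries may mean fewer cells with the mark or less mark per cell, and these cannot be told apart. H3K4me3 lay at the ends of 7 of 8 B-cell marker genes in each CARM1i library and 8 of 8 in each DMSO library. No T-cell or myeloid marker (0 of 6 each) had H3K4me3 in any library, and among 6 epithelial or stromal markers the count was 0 in each CARM1i and 1 in each DMSO library. H3K27ac lay at 6 and 6 of the B-cell markers with CARM1i and at 8 and 7 with DMSO, at no myeloid marker, and at 1 T-cell marker, CD2, with 2996 and 1615 bp with CARM1i and 1438 and 0 bp with DMSO. It also lay at 1 of the 6 epithelial or stromal markers, COL1A1, with 2394 bp in DMSO library 1 and 0 bp in every other library.

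TRAF3 had by far the longest H3K27ac cover of the 10 genes with DMSO. H3K27ac peaks covered 4879 and 5801 bp around it in the CARM1i libraries and 37367 and 28521 bp in the DMSO libraries. The groups did not overlap, with means of 5340 ± 652 bp and 32944 ± 6255 bp (SD, n = 2 each), so the length with CARM1i was 16.2% of that with DMSO (a log2 ratio of -2.62). Among all 19974 genes, TRAF3 was rank 7 by covered length with DMSO and rank 1 by the size of the decrease. These ranks are of base pairs in windows that grow with the gene, and TRAF3 is 134052 bp long. They also rest on the kind of values known when the genes were chosen. The neighbours AMN and CDC42BPB lie within 50 kb of TRAF3, so their windows share peaks with this one. The ranks therefore do not set TRAF3 apart from these neighbours. The difference of -27604 bp kept its sign in all 12 alternative settings (-32027 to -8985 bp). Leaving out a library could not change the sign, because the groups did not overlap, and using the replicate number as a block leaves the difference as it is. It was -15855.5 bp with only the peaks nearest to TRAF3 and -8985 bp in the gene alone.

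**Figure D1:**
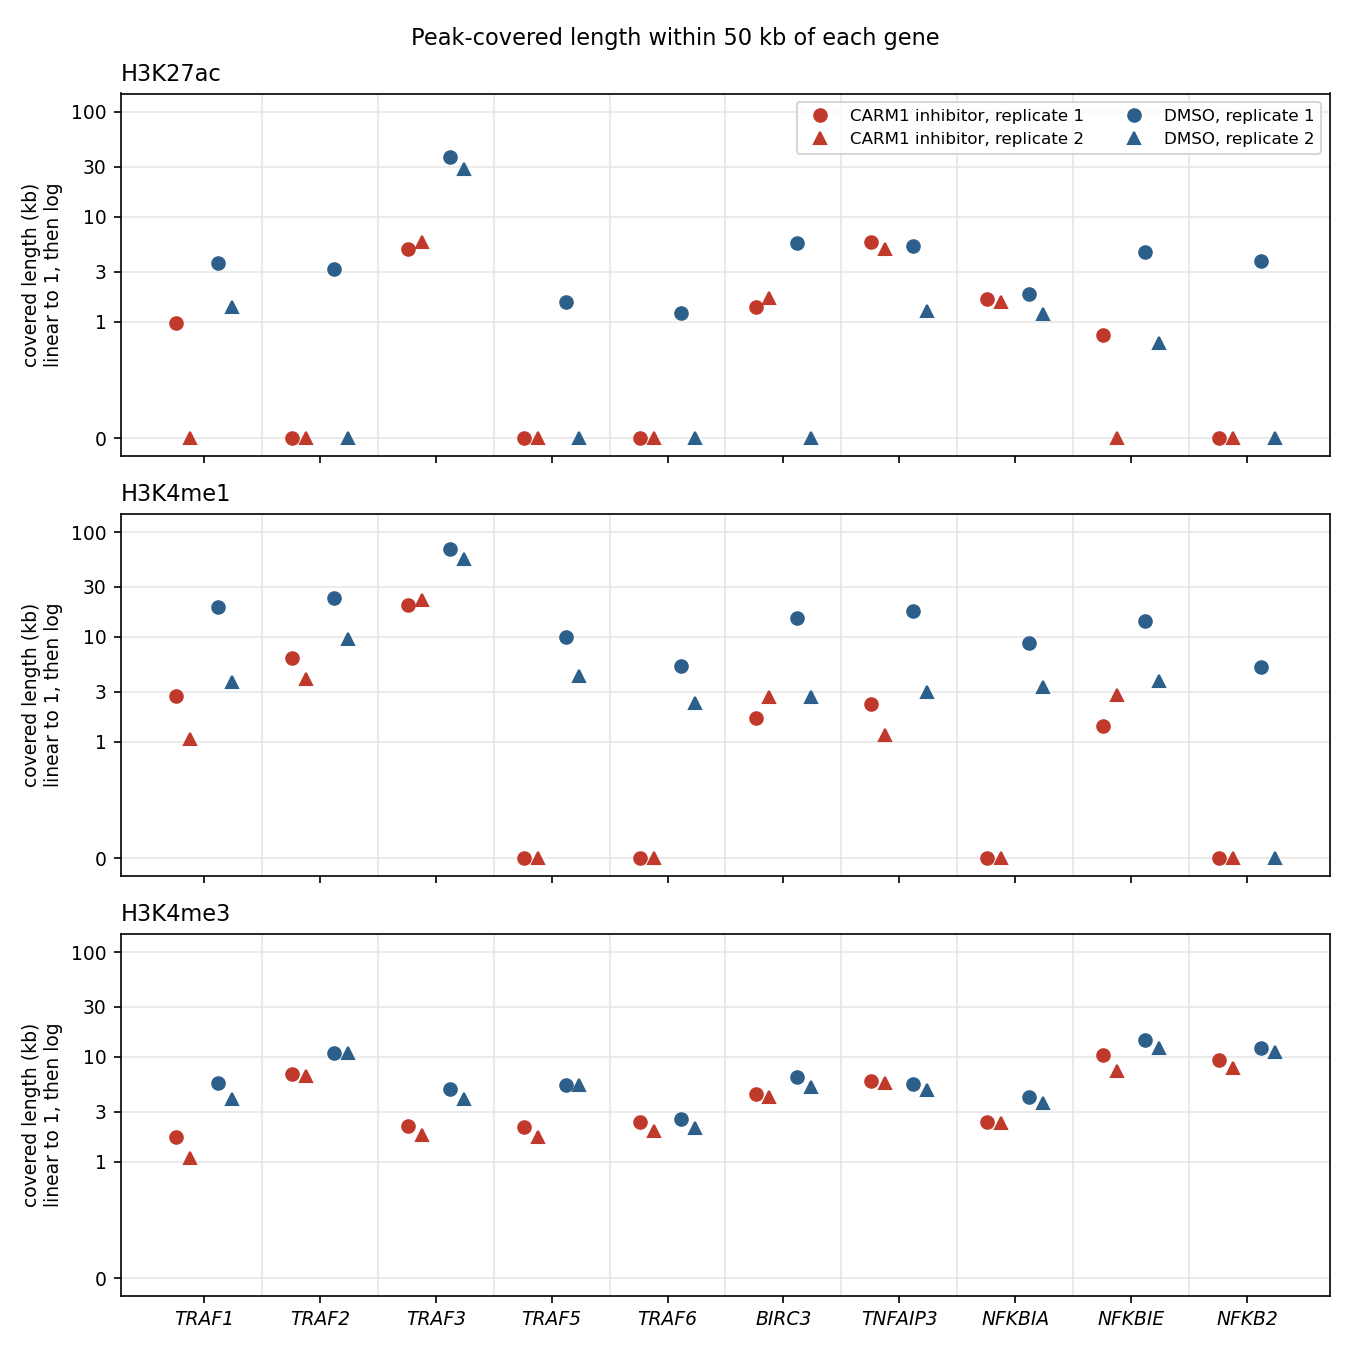
Base pairs covered by peaks within 50 kb of each of the 10 genes (vertical axis in kb, linear up to 1 and logarithmic above), with 1 panel per mark. Red points are the 2 CARM1 inhibitor libraries and blue points the 2 DMSO libraries; TRAF3 has the longest H3K27ac and H3K4me1 cover in every library but 1 (TNFAIP3 has 5709 bp of H3K27ac against 4879 bp at TRAF3 in CARM1i library 1).

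The TRAF3 H3K27ac lay in a start region and in a broad stretch over the last part of the gene and beyond it towards AMN and CDC42BPB. In the flank past the gene the peaks covered 0 and 1807 bp with CARM1i and 21164 and 16224 bp with DMSO. Inside the gene the values were 3881 and 3777 bp against 14875 and 10753 bp. In the flank before the gene they were 998 and 217 bp against 1328 and 1544 bp. The gene and each flank were thus lower in both CARM1i libraries, and in each DMSO library the flank past the gene held more than the gene itself.

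Peaks of a mark that overlapped or touched across libraries were joined into regions. A region was called lost where both DMSO libraries and neither CARM1i library had a peak, gained in the opposite case and kept where all 4 libraries had one. All 3 H3K27ac regions lost near any member lay in this stretch. The first, chr14:102906011-102910687, is inside TRAF3, with 4677 and 3447 bp in the DMSO libraries and no peak with CARM1i. The second, chr14:102912020-102918472, begins 519 bp past the gene, with 6453 and 5631 bp in the DMSO libraries. The third, chr14:102930570-102938646, begins 19069 bp past TRAF3 and overlaps AMN and CDC42BPB, with 7766 and 7639 bp in the DMSO libraries. The nearest annotated start to each of the 3 is that of AMN, 11976, 4191 and 7907 bp away, and not that of TRAF3. Which gene they act on was not tested. Of the 812 H3K27ac regions lost in the genome (7.89% of 10288 regions), these were ranks 10, 3 and 1 by mean covered length.

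**Figure D2:**
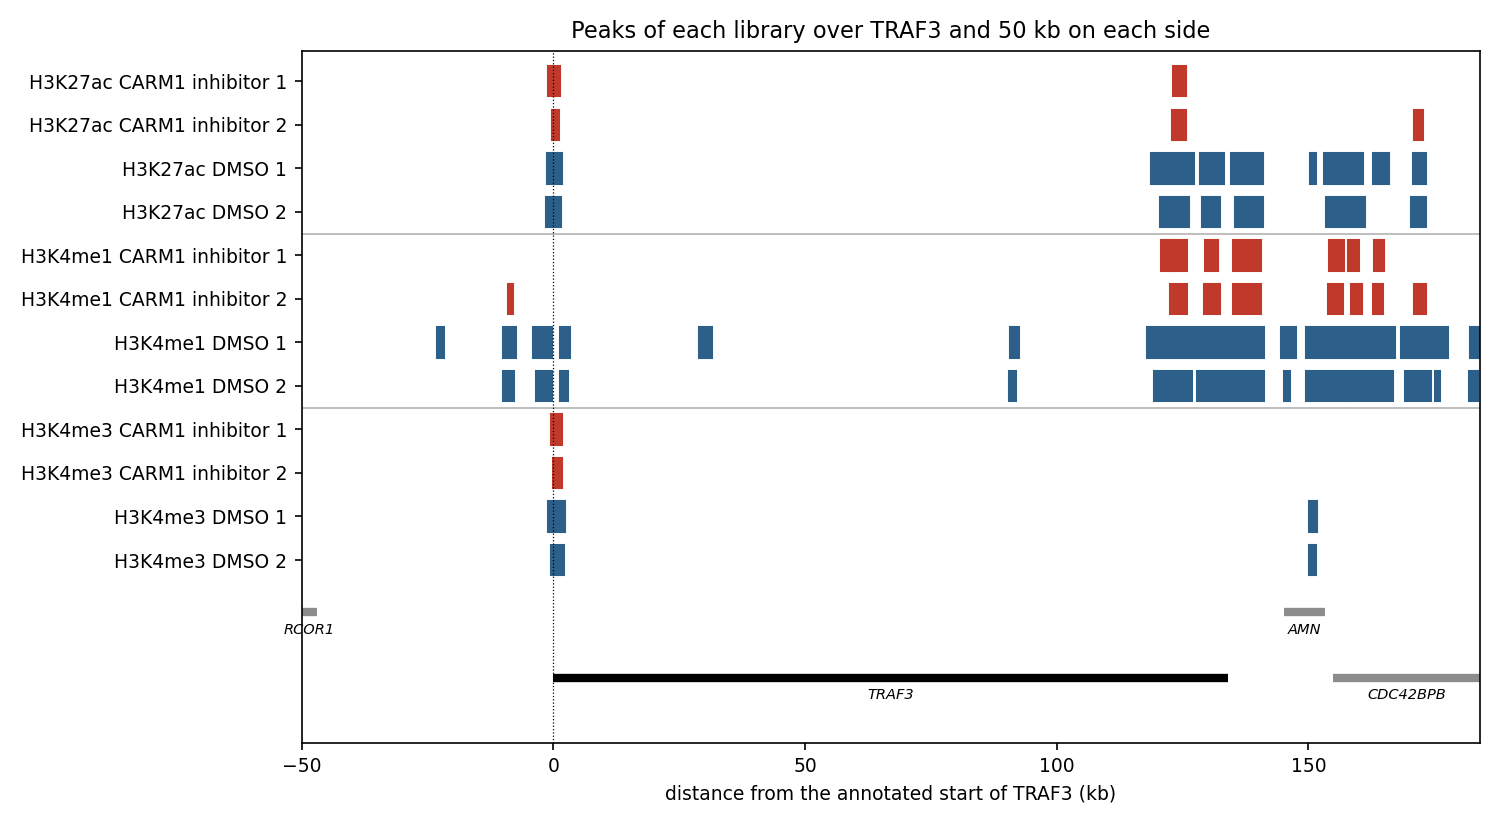
Peaks of the 12 libraries over TRAF3 and 50 kb on each side, as distance from its annotated start in kb, with CARM1 inhibitor libraries in red, DMSO libraries in blue and genes as bars below. The start keeps H3K27ac and H3K4me3 peaks in all libraries, while the H3K27ac stretch at the far end of the gene and past it is broad with DMSO and down to 1 or 2 short blocks with the inhibitor.

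H3K27ac was not absent from TRAF3 with the inhibitor. At the start, the region chr14:102775905-102779101 had 2372 and 1396 bp with CARM1i and 2981 and 3035 bp with DMSO. Inside the gene, the region chr14:102896156-102904700 had 2507 and 2598 bp with CARM1i and 8545 and 5815 bp with DMSO. Both were kept, and in both every CARM1i value was below every DMSO value.

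H3K4me1 remained in the 3 regions that lost H3K27ac. In the first, H3K4me1 peaks covered 2682 and 3156 bp with CARM1i and 4677 bp in each DMSO library. The second had 5553 and 5599 bp with CARM1i and 6453 bp in each DMSO library. The third had 5177 and 4764 bp with CARM1i and 8077 and 7938 bp with DMSO. Over the 3 regions, H3K4me1 covered 70.1% of the length with CARM1i and 99.6% with DMSO. Among the 812 lost regions of the genome, 78 (9.61%) had H3K4me1 in both CARM1i libraries and 249 (30.7%) in both DMSO libraries, and the covered shares of length were 13.1% and 39.5%. The TRAF3 regions had no H3K4me3 in any library, whereas 71.8% of the lost regions had it in both CARM1i libraries and 75.6% in both DMSO libraries.

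**Figure D3:**
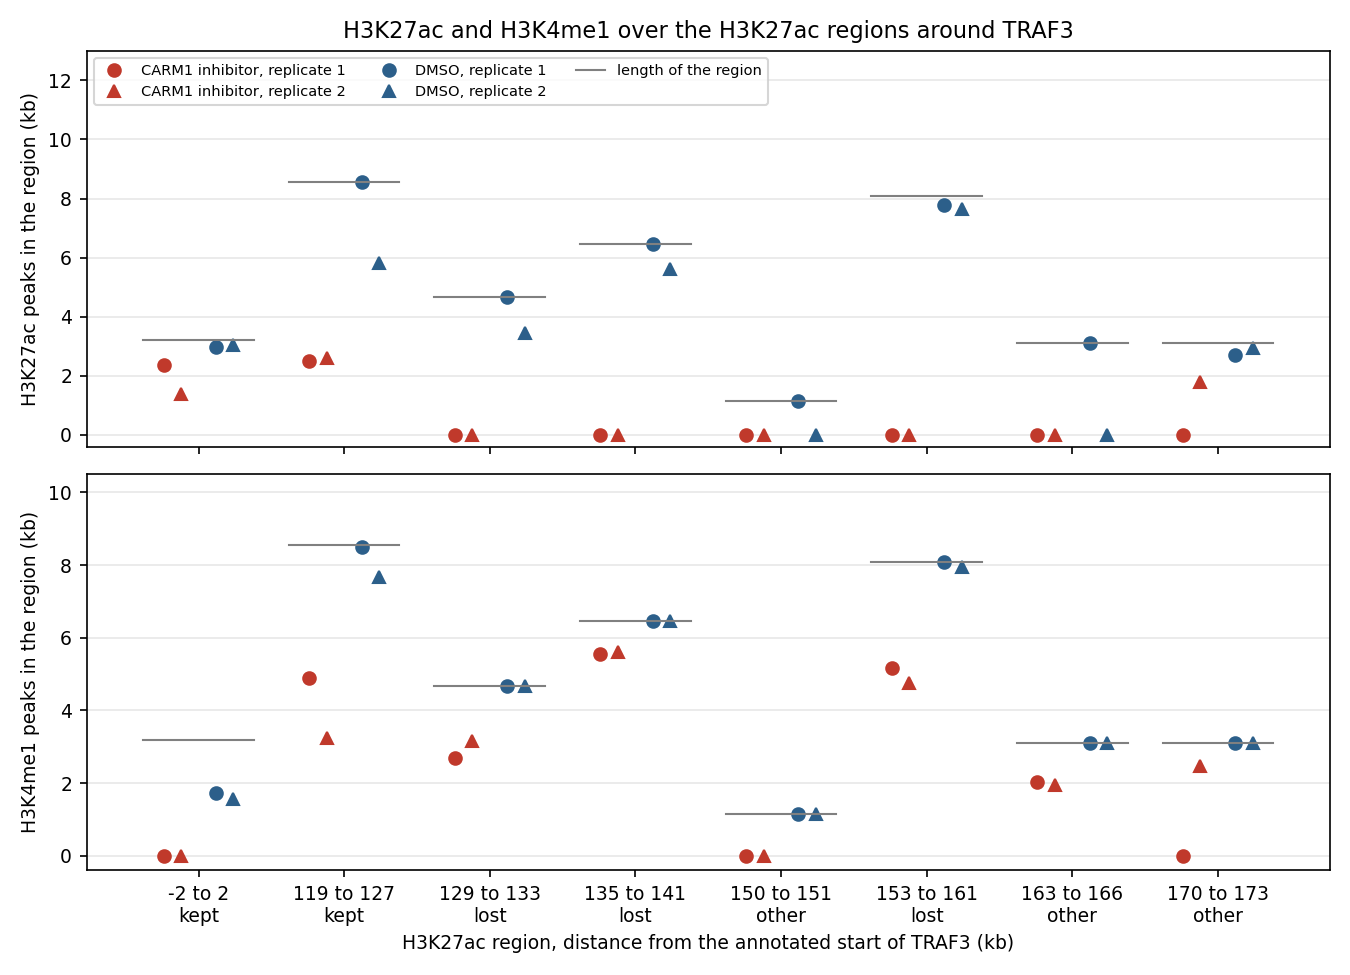
Base pairs covered by H3K27ac (upper) and H3K4me1 (lower) peaks, in kb, in each H3K27ac region around TRAF3, named by distance from the start in kb and by state (other: neither lost nor kept). Grey lines give the length of the region; in the 3 lost regions H3K27ac is at 0 with the inhibitor (red) while H3K4me1 covers 2682 to 5599 bp.

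Over the whole TRAF3 window, H3K4me1 covered 20348 and 22243 bp with CARM1i and 68586 and 55218 bp with DMSO, or 34.4%. That share was above the 21.1% of the whole lists, and when each library was scaled to its list total the TRAF3 groups overlapped, at 55786 and 66943 bp with CARM1i and 28377 and 62320 bp with DMSO. The same scaling left H3K27ac at TRAF3 apart, at 5274 and 6841 bp against 24354 and 41184 bp. In the window 5 H3K4me1 regions were lost. The wider of them at the start, chr14:102773419-102777268, ends 180 bp before the gene and had 3850 and 2830 bp in the DMSO libraries. Another, chr14:102921943-102925044, lies 10442 bp past the gene, with 3102 and 1245 bp in the DMSO libraries. The widest kept region, chr14:102926947-102944608, had 7206 and 6757 bp with CARM1i and 17662 and 17123 bp with DMSO.

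H3K4me3 at TRAF3 covered 2176 and 1792 bp with CARM1i and 4969 and 4007 bp with DMSO. The start region chr14:102776397-102779753 was kept, with 2176 and 1792 bp against 3357 and 2645 bp. A second region past the gene, chr14:102927579-102929190, was lost, with 1612 and 1362 bp in the DMSO libraries, and lay inside AMN.

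By distance over the 12 libraries, computed on log2(covered bp + 1000) within 50 kb, the genes most like TRAF3 outside 200 kb of it were IRF2 (distance 1.94), GRAMD4 (2.13) and TERT (2.37). IRF2, an interferon regulatory factor, had 6090 and 7652 bp of H3K27ac with CARM1i and 23796 and 11612 bp with DMSO. GRAMD4 had 10220 and 10418 bp against 18788 and 13952 bp. TERT, the catalytic subunit of telomerase, had 7793 and 11634 bp against 16221 and 13523 bp. All 3 were lower in both CARM1i libraries, and each had more H3K27ac left with the inhibitor than TRAF3.

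The other TRAF genes had far less H3K27ac. TRAF1, an adaptor that lacks the RING domain of the other family members, had 991 and 0 bp with CARM1i and 3644 and 1380 bp with DMSO. Its groups did not overlap, which made TRAF1 and TRAF3 the 2 of 10 members lower in both CARM1i libraries, a share near the 28.4% of the 10638 genes with any H3K27ac peak. None of the TRAF1 length lay inside the gene, and no region held a peak of both DMSO libraries. The 1380 bp of DMSO library 2 lay in PHF19, where CARM1i library 1 had 991 bp and DMSO library 1 had 0 bp. TRAF2, TRAF5 and TRAF6 had no H3K27ac peak in either CARM1i library or in DMSO library 2. DMSO library 1 gave 3151, 1546 and 1202 bp for these 3 genes, so their H3K27ac rests on 1 library. That library held more peaks than the other 3, and without DMSO library 2 the count of members lower would be 9 of 10.

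H3K4me3 at the starts divided the TRAF genes. TRAF1 lost its start region, chr9:120928136-120929906, which had 1771 and 1606 bp in the DMSO libraries and no peak with CARM1i. TRAF5, a close relative of TRAF2 that binds CD40 and other receptors, lost its start region chr1:211326213-211327889, with 1541 and 1677 bp in the DMSO libraries. TRAF1 and TRAF5 were the 2 members lost among 9 with H3K4me3 within 2 kb of a gene end in both DMSO libraries, against 5.67% of 10802 genes. The other 7 kept it. TRAF2, which recruits BIRC2 and BIRC3 to receptors, is listed from -4558 bp relative to its annotated start. Its start region chr9:136885282-136887924 was kept, with 2080 and 1906 bp with CARM1i and 2585 and 2643 bp with DMSO.

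TRAF6, the adaptor of interleukin-1 and Toll-like receptors, had nearly equal H3K4me3 cover, at 2400 and 1943 bp with CARM1i and 2540 and 2081 bp with DMSO. These groups overlapped. Its start region chr11:36508503-36511233 holds all of that length and also reaches RAG1, whose listed start is 81 bp away. TRAF1 had 1714 and 1080 bp of H3K4me3 in its window with CARM1i and 5646 and 3998 bp with DMSO, and what remained lay at PHF19, in the region chr9:120875747-120878370. The TRAF5 window had 2162 and 1722 bp against 5377 and 5430 bp, with all of the remainder in chr1:211381763-211384182, 6816 bp past the gene. The window of TRAF2 had 6848 and 6581 bp against 10827 and 10929 bp.

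A pair of further H3K4me3 regions were lost away from the starts of these genes. One, chr1:211415700-211417356, lies 40753 bp past TRAF5, with 1629 and 1533 bp in the DMSO libraries. The other, chr9:136949217-136950745, lies at LCN12, 22609 bp past TRAF2, with 1235 and 1529 bp. In all, 5 of 30 H3K4me3 regions in the windows of the 10 genes were lost, against 9.54% of all regions. None was gained, against 0.0925%, and 20 (66.7%) were kept, against 73.1%. Without CARM1i library 1 the lost regions would number 8.

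H3K4me1 around TRAF5 and TRAF6 was seen with DMSO alone. TRAF5 had 0 bp in both CARM1i libraries and 10004 and 4275 bp in the DMSO libraries, and TRAF6 had 0 bp against 5275 and 2354 bp. The TRAF5 regions chr1:211399393-211402010 and chr1:211414391-211417771 were lost, and the second had 2380 and 2220 bp in the DMSO libraries. TRAF1 had 2740 and 1059 bp against 19196 and 3700 bp, and its widest kept region was chr9:120890171-120894927, in PHF19. TRAF2 had 6275 and 3988 bp against 23306 and 9478 bp. Its lost region chr9:136948743-136952777, at LCN12, had 4035 and 2210 bp with DMSO, and its widest kept region, chr9:136838474-136844064, had 2503 and 2569 bp with CARM1i and 5591 and 3268 bp with DMSO. Scaled to list totals, TRAF2 was higher with CARM1i, by 4433 bp, but no scaled share over all genes was computed.

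BIRC3 (cIAP2) is a ubiquitin ligase of the TRAF2 and TRAF3 complex. H3K27ac covered 1385 and 1667 bp in its window with CARM1i and 5579 and 0 bp with DMSO. The DMSO libraries lay on both sides of the CARM1i ones, and the CARM1i peaks were not at BIRC3 but in the region chr11:102346249-102348342 at BIRC2, its neighbour and paralog. At the start of BIRC3, DMSO library 1 had a 3589 bp peak and the other 3 libraries none. H3K4me3 there was kept, with 1907 and 1746 bp with CARM1i and 3657 and 2537 bp with DMSO in chr11:102316679-102320351. Over the window H3K4me3 covered 4407 and 4177 bp against 6389 and 5127 bp. H3K4me1 covered 1677 and 2677 bp against 15163 and 2675 bp, so the groups overlapped by 2 bp. Its kept H3K4me1 region, chr11:102304725-102308285, lies 9198 bp before the gene.

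**Figure D4:**
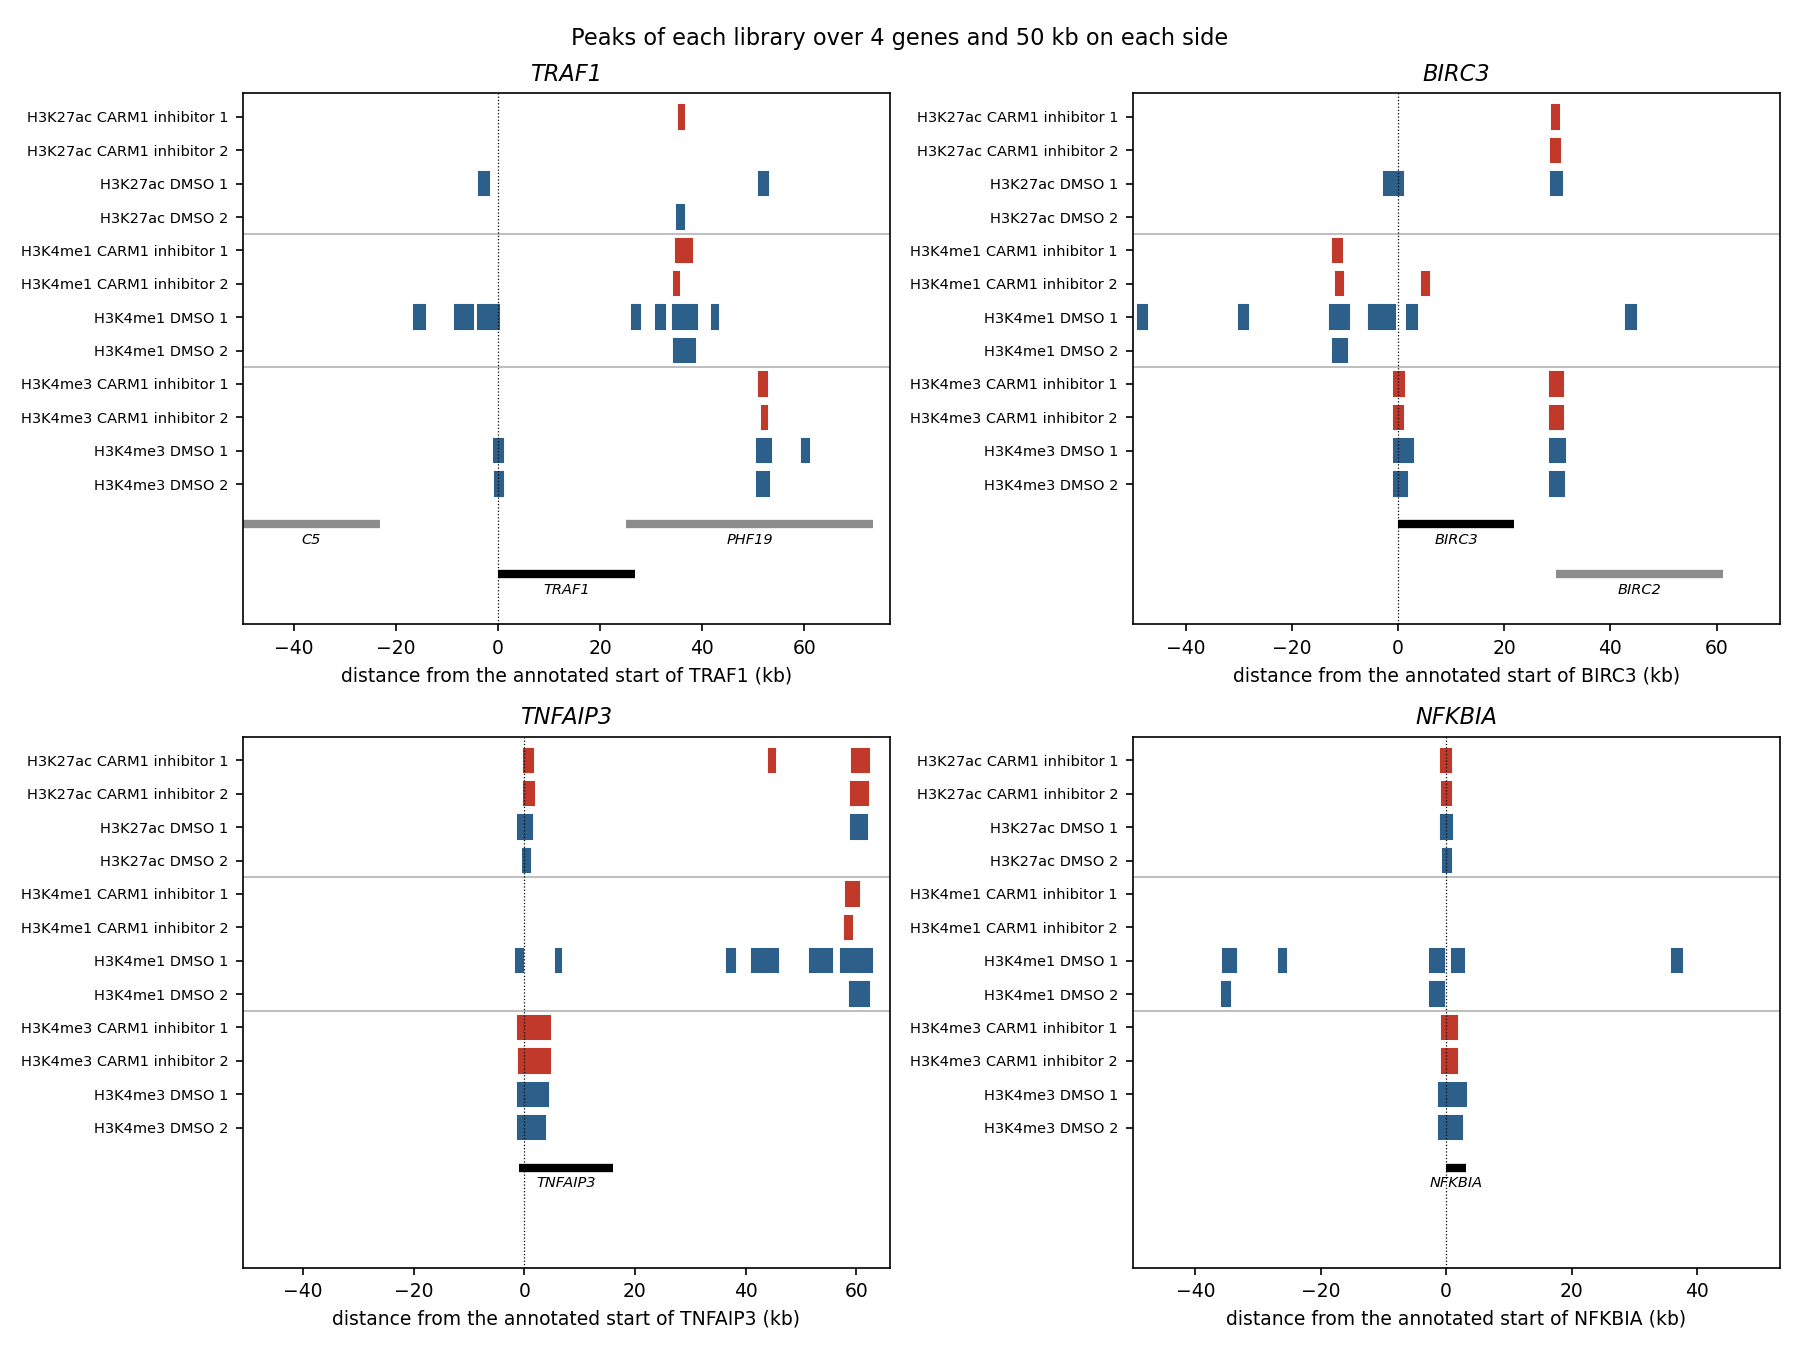
Peaks of the 12 libraries over TRAF1, BIRC3, TNFAIP3 and NFKBIA and 50 kb on each side, as distance from the annotated start in kb in the direction of the gene, with CARM1 inhibitor libraries in red and DMSO libraries in blue. TRAF1 has start H3K4me3 with DMSO alone, whereas BIRC3, TNFAIP3 and NFKBIA have it in all 4 libraries, and TNFAIP3 and NFKBIA also keep H3K27ac at the start.

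TNFAIP3 (A20), a deubiquitinase that ends NF-kB signals, had slightly more H3K4me3 with CARM1i. Its peak covered 5882 and 5634 bp with CARM1i and 5488 and 4811 bp with DMSO, in chr6:137866076-137871965. It was the 1 member of 10 with more H3K4me3 in both CARM1i libraries, against 0.426% of 15024 genes. The difference of 608.5 bp was small beside the length and had the same sign in all 12 alternative settings (270 to 2294 bp). Leaving out a library or using the replicate number as a block could not change that sign. H3K27ac in the window covered 5709 and 4888 bp with CARM1i and 5318 and 1263 bp with DMSO, and the groups overlapped. The start region chr6:137866212-137868957 had 1689 and 1804 bp against 2496 and 1263 bp. A region 43085 bp past the gene, chr6:137926398-137929498, had 2926 and 3084 bp with CARM1i and 2822 and 0 bp with DMSO.

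That distal TNFAIP3 region also held H3K4me1. The H3K4me1 region around it, chr6:137924448-137930121, was kept, with 2285 and 1152 bp with CARM1i and 5674 and 2990 bp with DMSO. All of the H3K4me1 left in the TNFAIP3 window with CARM1i was there. The window as a whole had 17639 and 2990 bp with DMSO. Scaled to list totals, H3K27ac in the window was 226% of DMSO and higher in both CARM1i libraries, and H3K4me3 was 151%. No scaled share over all genes was computed for comparison.

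NFKBIA, which encodes the inhibitor IkB-alpha, had H3K27ac values that overlapped between the groups. Its 1 region, chr14:35403809-35405630 at the start, had 1650 and 1549 bp with CARM1i and 1822 and 1170 bp with DMSO. H3K4me3 covered 2385 and 2332 bp against 4180 and 3594 bp, all in chr14:35401644-35405836, and did not overlap between groups. H3K4me1 was 0 bp in both CARM1i libraries and 8800 and 3345 bp with DMSO. NFKBIA was the 1 member lost among 3 with H3K4me1 at a gene end in both DMSO libraries, against 55.4% of 2626 genes. Its lost regions were chr14:35405027-35407326, which begins 277 bp outside the gene, and chr14:35438298-35440463, with 2003 and 1222 bp in the DMSO libraries.

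NFKBIE encodes a second inhibitor, IkB-epsilon. H3K27ac covered 883 and 0 bp in its window with CARM1i and 4606 and 813 bp with DMSO. The values overlapped, since 813 bp in DMSO library 2 lies below 883 bp in CARM1i library 1. H3K4me3 covered 10347 and 7390 bp with CARM1i and 14554 and 12222 bp with DMSO, the longest H3K4me3 mean of the 10 genes in both groups. The region at its own end, chr6:44262809-44266155, had 2590 and 1548 bp against 3310 and 3278 bp. Other H3K4me3 peaks in this gene-dense window lay at neighbours. H3K4me1 had 1401 and 2782 bp against 14182 and 3770 bp, with a kept region inside the gene, chr6:44261230-44264656, and a lost one, chr6:44217658-44220541, 37624 bp away at SLC29A1.

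NFKB2 encodes the precursor that the alternative branch processes. H3K27ac was 0 bp in both CARM1i libraries and in DMSO library 2, and 3802 bp in DMSO library 1. H3K4me1 was likewise 0 bp in those 3 libraries and 5127 bp in DMSO library 1. H3K4me3 covered 9289 and 7925 bp with CARM1i and 12149 and 11220 bp with DMSO. The start region chr10:102393366-102396726, which holds all 3 annotated starts, was kept, with 2896 and 2663 bp against 3353 and 3347 bp. Thus 3 marks at NFKB2 gave 1 kept H3K4me3 region over its start and no H3K27ac or H3K4me1 that both DMSO libraries shared.

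Across the 10 genes, 8 were lower in H3K4me3 in both CARM1i libraries, which is near the 87.2% of all 15024 genes with a peak. For H3K4me1, 8 were lower, against 52.9% of 13227 genes, but 3 when each library was scaled to its list total and 2 with lists cut to equal length. BIRC3 and NFKB2 were the exceptions among the lists as deposited. The median difference over the 10 genes was -1420 bp for H3K27ac, -7012 bp for H3K4me1 and -2791 bp for H3K4me3, against -712.5, -3482 and -1039 bp over all genes with a peak. Scaled to list totals, the H3K4me1 median was -590 bp. In the lists as deposited no member was higher in H3K27ac or H3K4me1, against 5.25% and 0.121% of genes. Scaled, TNFAIP3 and NFKBIA were higher in H3K27ac (3323 and 366.6 bp) and TRAF2 in H3K4me1, and with the replicate number as a block TNFAIP3 was higher in H3K27ac (2008 bp). Shares over all genes were computed only for the lists as deposited, so these calls and the other scaled counts have no share to be set against. No member lost H3K27ac at its ends among 4 with it in both DMSO libraries, against 28.0% of 2329 genes, and TRAF3, TNFAIP3 and NFKBIA kept it. Of 26 H3K27ac regions in the windows 3 (11.5%) were lost, against 7.89% of all regions, and 0 gained, against 3.79%. Of 68 H3K4me1 regions 12 were lost, against 17.2%, and 0 gained, against 0.0976%.

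At annotated starts, read within 2 kb for the 9 members that have one, H3K27ac was lost at 0 of 3 that had it with DMSO in each library, against 28.8% of genes. H3K4me1 was lost at 2 of 2, TRAF3 and NFKBIA, against 62.2%, and H3K4me3 at 2 of 9, TRAF1 and TRAF5, against 5.44%. No member gained a mark at a start, where 0.340%, 0.0296% and 0.0154% of genes did.

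**Figure D5:**
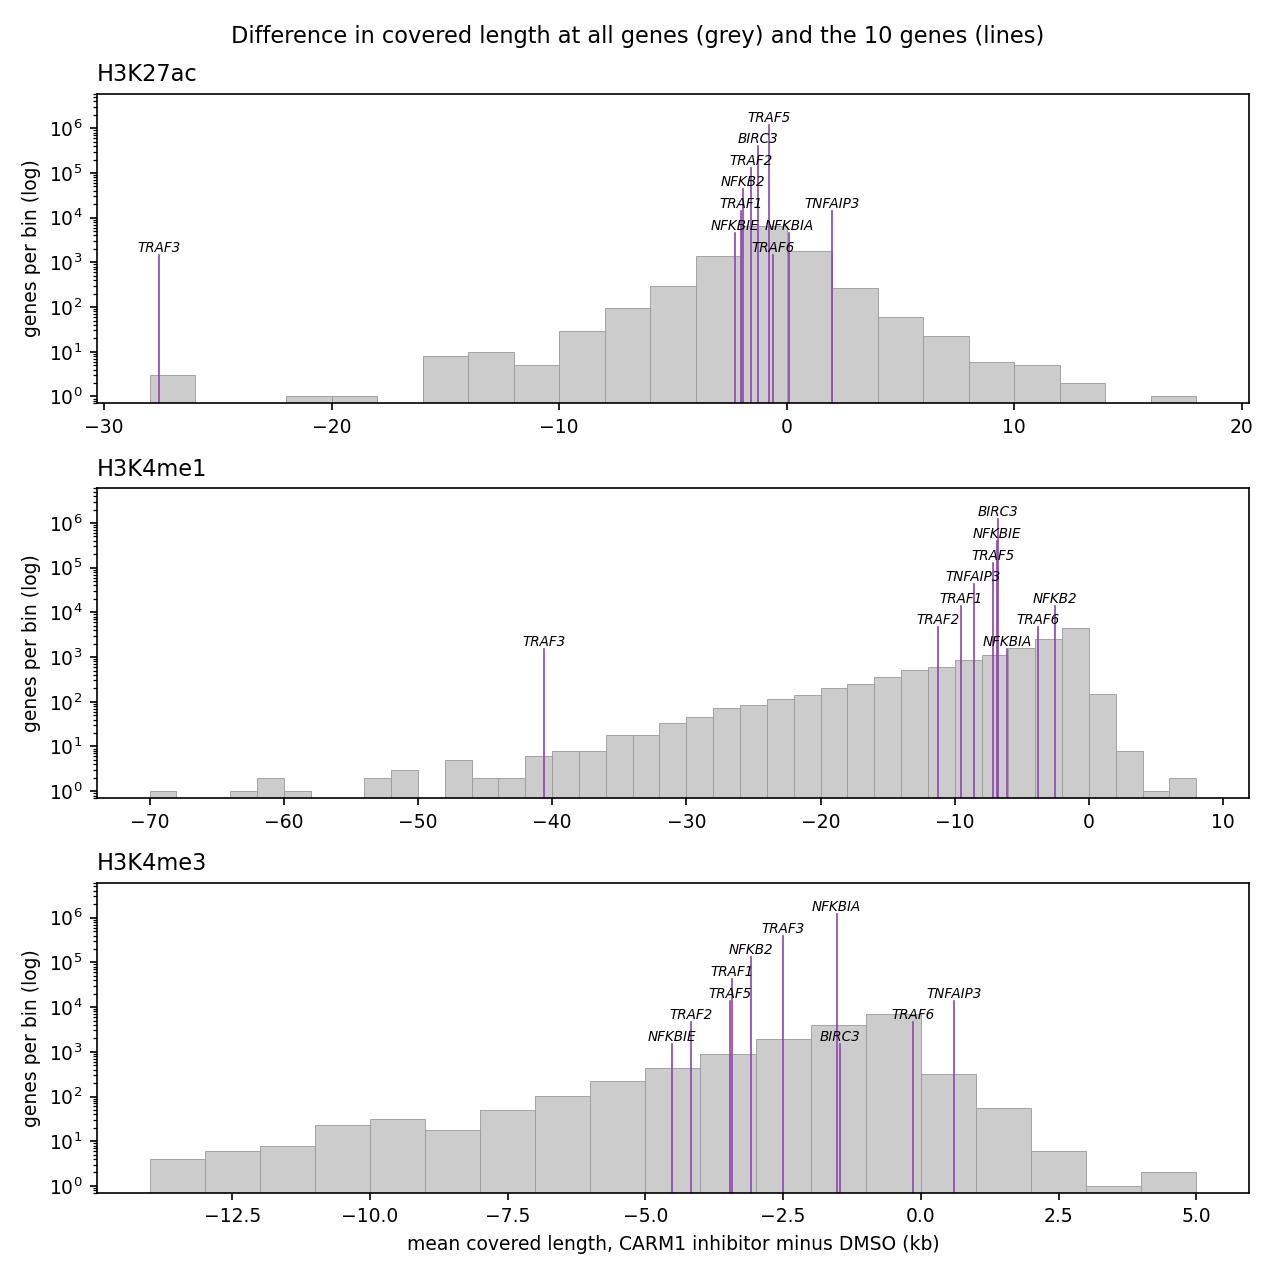
Number of genes (logarithmic axis) by mean covered length with CARM1 inhibitor minus that with DMSO, in kb, for all protein-coding genes with a peak (grey bars) and for the 10 genes (lines, whose heights carry no value). TRAF3 lies at -27604 bp of H3K27ac, in the bar of 3 genes farthest to the left, and TNFAIP3 lies right of 0 for H3K27ac and H3K4me3.

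Window edges cut some peaks. Summed over the 10 genes, the outermost 10 kb inside the windows held 2926 and 3084 bp of H3K27ac with CARM1i and 3996 and 0 bp with DMSO. The first 10 kb outside held 3753 and 4511 bp against 7294 and 3486 bp. At TRAF3 neither strip held H3K27ac in any library.

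A list of 83 other genes of the pathway, from receptors to targets, was read in the same way. H3K27ac was lower in both CARM1i libraries for 17 of 53 genes with a peak (32.1%) and higher for 1. H3K4me1 was lower for 43 of 66 (65.2%) and H3K4me3 for 61 of 67 (91.0%), and none was higher in these 2 marks. The median differences were -930.5, -6012 and -1498 bp. Scaling to list totals was not done for these 83 genes. At gene ends, 2 of 15 genes lost H3K27ac, 12 of 27 lost H3K4me1 and 4 of 55 lost H3K4me3, against 28.0%, 55.4% and 5.67% of all genes. None gained a mark there, where 0.413%, 0.0243% and 0.0114% of genes did.

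Among receptors, CD40 lost H3K4me3 at its end, with 2214 and 1687 bp in the DMSO libraries. CD40 activates B cells and signals through TRAF2, TRAF3, TRAF5 and TRAF6. The 1 gene of the list with more H3K27ac, TNFRSF13C (the BAFF receptor), had 5561 and 4452 bp with CARM1i and 3560 and 1212 bp with DMSO, and is named after its values were seen. H3K4me1 was lost at an end of 4 receptors, all of the TNF family. They were TNFRSF13B (3740 and 2018 bp with DMSO), CD27 (5906 and 651 bp), TNFRSF8 (2192 and 1209 bp) and TNFRSF1A (1414 and 1362 bp). TNFRSF1A is named outside the rule for naming genes. Of the 14 receptors, 10 were lower in H3K4me1 in both CARM1i libraries, against 52.9% of all genes with a peak. The 14 include TNFRSF9 and IL1R1, which had no H3K4me1 peak in any library.

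Among 18 adaptors, TANK and TRAF3IP2 lost H3K4me3 at an end, with 1039 and 924 bp and 1489 and 1197 bp in the DMSO libraries. TRAF3IP2, which serves interleukin-17 receptors, lost it at its start, while TANK kept its start. H3K4me1 was lost at MYD88, the adaptor of Toll-like receptors, with 2788 and 1158 bp with DMSO, at TAB1 with 3512 and 2522 bp, and at TRAF3IP3 with 2867 and 2204 bp. In all, 14 adaptors kept H3K4me3 at an end in all 4 libraries. Over all genes, 9783 of the 10802 with it there in both DMSO libraries kept it.

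Among the kinases, CHUK (IKK-alpha), which acts downstream of MAP3K14, lost H3K27ac at an end, with 2811 and 1824 bp in the DMSO libraries. Within 2 kb of its annotated start the DMSO libraries had 832 and 0 bp, so the start was not called lost. IKBKB (IKK-beta) lost H3K4me1, with 2182 and 1044 bp in the DMSO libraries. MAP3K14 itself had 7882 and 6469 bp of H3K27ac in its window with CARM1i and 8125 and 8038 bp with DMSO. Its H3K4me3 was 4292 and 2897 bp against 11693 and 6826 bp, and its H3K4me1 12769 and 11486 bp against 31014 and 18800 bp. The groups did not overlap in any of the 3 marks, and the lengths were not scaled to list totals. By the same rule 28.4% of all genes with a peak were lower in H3K27ac, 52.9% in H3K4me1 and 87.2% in H3K4me3.

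The 4 other NF-kB subunit genes kept H3K4me3 at their ends, as did 9783 of the 10802 genes with it there in both DMSO libraries. NFKB1 had 2911 and 2260 bp there with CARM1i and 3092 and 2938 bp with DMSO. REL, a subunit prominent in germinal centre B cells, had 3216 and 3040 bp against 3389 and 3396 bp. RELA had 3827 and 3603 bp against 4349 and 4054 bp, and RELB had 2870 and 2881 bp against 4134 and 3145 bp. H3K27ac was kept at the ends of REL, RELA and RELB. Within 2 kb of the annotated start of RELA it covered 1201 and 0 bp with CARM1i and 0 and 1328 bp with DMSO. REL lost H3K4me1 at its end, with 1150 and 464 bp in the DMSO libraries.

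Among 14 inhibitors and deubiquitinases, BCL3 lost H3K27ac, with 2004 and 1266 bp in the DMSO libraries. NFKBIZ lost H3K4me3 at 1 end and kept it at its start. CYLD, a deubiquitinase that restrains NF-kB, kept H3K4me3 with 1629 and 1179 bp against 1748 and 1718 bp. Of 19 targets, ICAM1, an adhesion molecule, lost H3K4me1, with 6686 and 1844 bp in the DMSO libraries.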

How the data were processed

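Chromatin from Toledo cells was immunoprecipitated for 3 histone marks, with 2 libraries per mark and treatment. The submitters' processing notes name MACS 1.4.2, Bowtie 1.1.2 and the build hg38. What the 4 input libraries (not used here) served for, and the thresholds and filters, is not given in the sources used here. For each of 12 libraries the authors deposited a separate peak list, with chromosome, start and end and no score or other values. The deposited lists carry no read counts, so depth is unknown. Widths stood in for scores.

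Covered base pairs were computed with Python 3.11.15, numpy 2.4.6 and pandas 2.3.3 over each protein-coding gene in the RefSeq table for GRCh38.p14 (chromosomes 1 to 22 and X) and 50 kb on each side. A peak belonged to a region from 1 bp, and gene ends meant 2 kb around either end. "Lower" means both CARM1i libraries below both DMSO libraries. With 2 libraries a group the smallest exact permutation p is 0.333, so no test was made. The members and lists were chosen with earlier results of these data known. Genes named beyond the 10 are pathway genes lost or gained at their ends (up to 8 per mark and direction by covered length), 7 named in any state (REL, RELA, RELB, NFKB1, CD40, MAP3K14, CYLD) and the 3 nearest to TRAF3. TNFRSF13C and TNFRSF1A were added after their values were seen. Regions named are the lost H3K27ac and H3K4me3 regions, the 5 widest lost H3K4me1 regions and the widest kept region of each gene, with others described after their values were seen. The code was tested on simulated data. Windows, nearest-gene assignment, scaling, list length, peak width, merging and left-out libraries were varied.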

Additional observations from a re-analysis of the deposited data

How the results depend on the processing

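Among the counts and medians over the 10 genes, 128 alternative values stayed within the spread (medians) or within 1.5 times (counts), and 46 moved. The spread was the SD between the 2 libraries of a group, pooled over both groups, and can be wide. The H3K27ac median of 0 bp without DMSO library 1, against -1419.5 bp, was still within it, so staying within the spread does not mean that a difference remained. Of 360 alternative values of single genes, 17 differed in sign from the reported difference. In 4 of these the groups had not overlapped, all when covered length was scaled to list totals: H3K4me1 at TRAF3 (16016 bp), TRAF2 (4433 bp) and NFKBIE (1046 bp), and H3K4me3 at BIRC3 (51.7 bp). The other 13 were at genes whose groups overlapped. They were H3K4me1 at BIRC3 scaled (1681 bp), H3K27ac at TRAF6 within 100 kb (3233 bp), at BIRC3 without DMSO library 1 (1526 bp), at TNFAIP3 within 10 kb (-133 bp), in the gene alone (-64.5 bp) and without DMSO library 2 (-19.5 bp), at NFKBIA in the gene alone (-8.0 bp) and without DMSO library 2 (-222.5 bp), and H3K4me3 at TRAF6 in 5 settings (89.5 to 1270 bp). By construction, scaling raises CARM1i where the CARM1i lists cover less. Scaling was done for the 10 genes only, so the scaled counts have no share over all genes. Where the groups did not overlap, leaving out a library cannot change a sign, and the block by replicate number leaves every difference as it is.

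For H3K27ac, 2 genes were lower, against 1 with the gene alone or nearest-gene peaks and 2 to 9 with a library left out. The median difference ran from -3150 to 0 bp with a library left out. The 3 lost regions became 1 in the gene alone and 4 to 16 with a library left out, where gained regions were 0 to 2. Ends lost, 0 of 4, were 1 with lists of equal length or 1 kb ends and 0 to 4 with a library left out. The upper values of 9, 16 and 4 came without DMSO library 2; without DMSO library 1 the lost regions were 5 and the gained ones 2, and without CARM1i library 2 the gained ones were 1.

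For H3K4me1, 8 genes were lower, against 4 within 10 kb, 2 in the gene alone, 5 with nearest-gene peaks, 3 scaled, 2 with lists of equal length and 8 to 10 with a library left out. The median of -7012 bp became -2710 bp within 10 kb, -1157 bp in the gene alone, -590 bp scaled, -1657 bp with lists of equal length, and -12538 to -2077 bp with a library left out (the ends without DMSO library 2 and without DMSO library 1). The 12 lost regions became 4 within 10 kb, 2 in the gene alone, 7 with nearest-gene peaks, 1 with lists of equal length and 13 to 54 with a library left out (54 without DMSO library 2). Gained regions were 0 to 1 with a library left out. Ends lost, 1 of 3, were 0 with lists of equal length, 2 at annotated starts (TRAF3 and NFKBIA) and 1 to 6 with a library left out, with 6 without DMSO library 2.

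For H3K4me3, 8 genes were lower, against 5 scaled. The median of -2791 bp became -1480 bp within 10 kb, -1054 bp in the gene alone, -1248 bp with nearest-gene peaks, -939.3 bp scaled, -1989 bp with lists of equal length, -3120 bp within 100 kb, and -3210 to -2312 bp with a library left out. The 5 lost regions became 2 within 10 kb, in the gene alone or with lists of equal length, 3 with nearest-gene peaks and 5 to 8 with a library left out. Ends lost were 1 with lists of equal length against 2.

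Annotated starts and the 100 kb window were added after seeing the data. With the replicate number as a block, 3, 8 and 9 genes were lower in H3K27ac, H3K4me1 and H3K4me3 and TNFAIP3 was higher in H3K27ac. The block leaves the differences themselves as they are, so the medians stayed at -1420, -7012 and -2791 bp. Deviations of same-numbered libraries correlated at 0.227, 0.131 and 0.304 over genes, but the labels tie the numbers to nothing shared. Apart from windows, which hold fewer peaks by construction, the cause was not tested.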
